A study of Dirofilaria immitis with 5 samples.

Results

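The miR-36 rows of a small RNA table from Dirofilaria immitis were followed across life stages and sexes, together with predicted small RNAs that begin with the same bases. D. immitis is the heartworm of dogs, a filarial nematode. The study sequenced small RNA from the culture medium of live whole worms and not RNA extracted from worm tissue. How the RNA came into the medium was not tested. The 5 libraries were 1 of adult females, 1 of adult males, 1 of microfilariae (their blood-borne offspring), 1 of third-stage larvae (which mosquitoes pass on to the dog) and 1 of the fourth-stage larvae that follow in the host. The labels give no strain, treatment, age or number of worms per culture. With 1 library per stage or sex there was no spread between replicates, so no test across samples could be made, and every statement compares libraries. The members were 8 of the 1228 rows (distinct sequences) of the table. They were 3 rows named after miR-36 of Brugia malayi, which carries the prefix bma, and 5 predicted candidates, whose names start with PC, whose first 6 bases equal those of bma-miR-36a.

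MicroRNAs are short RNAs that guide Argonaute proteins to messenger RNAs, mostly by pairing of their seed, bases 2 to 8 from the 5′ end. MicroRNAs with the same seed are grouped into a family because they can bind the same sites. The miR-35 family, to which miR-36 belongs, is abundant in oocytes and embryos of the free-living nematode Caenorhabditis elegans, is needed for its embryonic development and acts there in sex determination. Filarial females are viviparous: embryos develop in the uterus and leave it as microfilariae.

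The sequences are printed as the table gives them, in DNA letters from 5′ to 3′, because the seed decides which rows could be counted as 1 family. Capitals mark bases 2 to 8.
bma-miR-36a_R+1_1ss19GA: tCACCGGGtgcacattcgatc
bma-miR-36a_1ss19GA: tCACCGGGtgcacattcgat
PC-3p-11865_72: tCACCGGGtgcacattcgatt
bma-miR-36b_R-4_1ss9GT: tCACCGGAtacattattc
PC-3p-3551_334: tCACCGGAtacattattcctta
PC-3p-4128_281: tCACCGGAcgaaacattcctt
PC-3p-3757_313: tCACCGTTaatactgttcga
PC-3p-6380_163: tCACCGAAagcattgttctaa

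The 8 rows, of 18 to 22 nt, held 4 different seeds. Only 3 of them, both bma-miR-36a rows and the candidate PC-3p-11865_72, shared the seed CACCGGG. The miR-36b row and the candidates PC-3p-3551_334 and PC-3p-4128_281 shared CACCGGA, which differs in the last seed base. PC-3p-3757_313 differed from all others in the last 2 seed bases. PC-3p-6380_163 differed from all others in base 7 and shared its last seed base with the CACCGGA rows, so bases 2 to 7 were shared by 6 of the 8 rows.

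Several rows were forms of each other. bma-miR-36a_1ss19GA is bma-miR-36a_R+1_1ss19GA without its last base. PC-3p-11865_72 differs from the longer row at 1 of 21 positions, C21T counted from the 5′ end, and so carries the whole of the shorter row. bma-miR-36b_R-4_1ss9GT, at 18 nt, is the start of PC-3p-3551_334, at 22 nt. PC-3p-4128_281 and PC-3p-3551_334 matched at 16 of 21 positions from the 5′ end and shared the run attcctt near the 3′ end. Against bma-miR-36a_R+1_1ss19GA, PC-3p-3757_313 matched at 9 of 20 positions and PC-3p-6380_163 at 10 of 21, and most of these matches were the shared start. The file does not explain suffixes such as 1ss19GA. In all 3 miR-36 rows among the 8 the base at the numbered position is the last letter of the suffix. The same held in 80 of the 86 rows of the table with a suffix of this kind. None of the 8 rows was among the 56 that the table lists with matches in the dog genome.

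The table held between 32983 reads (males) and 727018 reads (microfilariae) per library, with 376070 in females, 326187 in fourth-stage and 34448 in third-stage larvae. As a part of the mappable reads this ran from 0.870% in third-stage larvae and 1.0% in males to 12.2% in females and 20.2% in microfilariae. Shares are given in percent of the table reads of a library, and folds are ratios of shares. Exact 95% binomial intervals stand in parentheses and reflect counting error alone. A count of 0 was read as anything up to 3 reads, a limit of 0.000413% in microfilariae, 0.000798% in females, 0.00910% in males, 0.000920% in fourth-stage and 0.00871% in third-stage larvae. A fold against 0 reads is a lower bound computed with that limit in that library. Such a bound is not a 95% limit. For PC-3p-3757_313 in females over males it was 14.4, while the exact 95% lower limit was 11.6.

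The reads of the 8 rows lay mainly in the adult libraries, above all in that of females. They summed to 21124 reads or 5.62% (5.54 to 5.69) of the female table and to 190 reads or 0.576% (0.497 to 0.664) of the male table. Fourth-stage larvae had 5 reads (0.00153%), third-stage larvae 2 (0.00581%) and microfilariae 30 (0.00413%). Fewer releasing worms and less RNA released per worm cannot be told apart in such libraries. As a percentage of mappable reads, the sum was 0.683% in females, 0.00577% in males, 0.000834% in microfilariae, 7.78e-05% in fourth-stage and 5.05e-05% in third-stage larvae, so females and males led on both scales. All 8 rows had 10 or more reads in females. In males only bma-miR-36a_R+1_1ss19GA and in microfilariae only PC-3p-6380_163 reached that level, and no row did in either larval library.

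**Figure D1:**
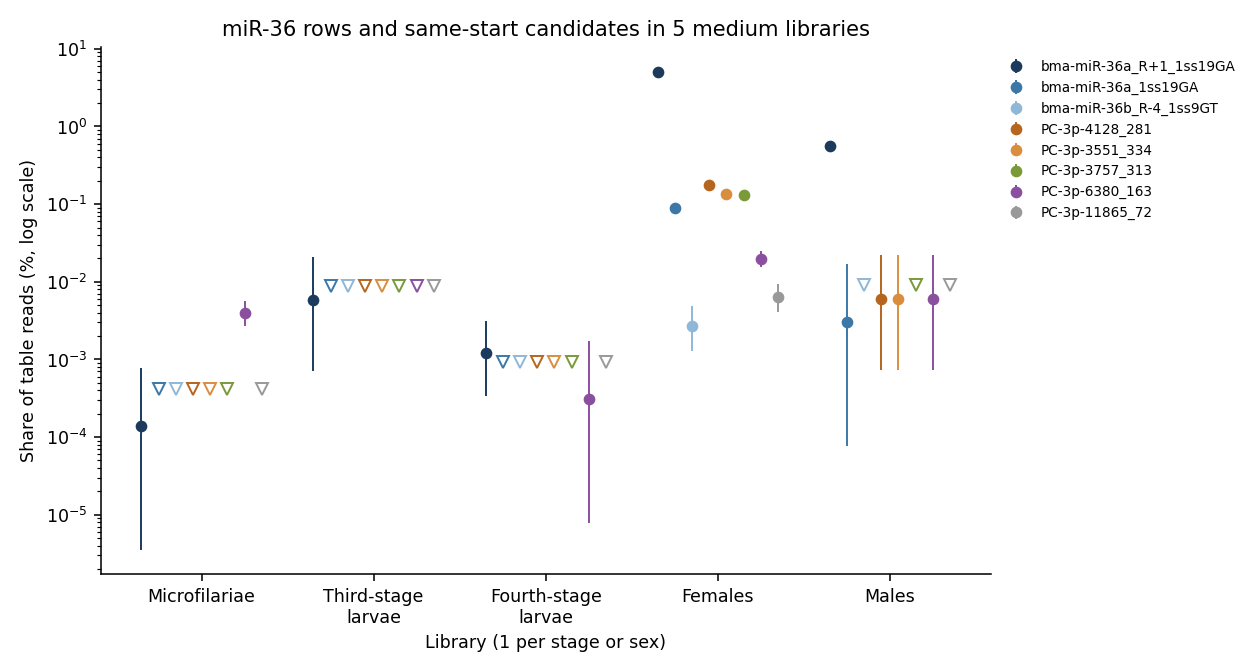
Share of table reads (log scale) of each of the 8 rows in the 5 libraries, with bars for exact 95% binomial intervals. Open triangles mark rows with 0 reads, drawn at the limit of 3 reads. The female library holds all 8 rows, from 0.00266% to 5.06%, while the larval libraries hold at most 4 reads of any row.

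bma-miR-36a_R+1_1ss19GA, the longer miR-36a form, carried most of these reads. It had 19034 reads in females, 183 in males, 4 in fourth-stage larvae, 2 in third-stage larvae and 1 in microfilariae. The female and male libraries were therefore high and the other 3 were at or near 0. Its share was 5.06% (4.99 to 5.13) in females, where it ranked as the 4th row of the table, and 0.555% (0.478 to 0.641) in males, where it ranked 19th. The next shares were 0.00581% (0.000703 to 0.0210) in third-stage larvae, 0.00123% (0.000334 to 0.00314) in fourth-stage larvae and 0.000138% (3.48e-06 to 0.000766) in microfilariae. In that order, third-stage over fourth-stage larvae was 4.73-fold (0.428 to 33.0) and microfilariae over fourth-stage larvae 0.112-fold (0.00228 to 1.13). Neither of these neighbours differed beyond counting error. Males stood 95.6-fold (26.1 to 795) above third-stage larvae, so the step from males to the larvae was larger than counting error. Microfilariae, the library with the most table reads, had 1 read of this row, and the male share was 4034-fold (715 to 160183) that of microfilariae.

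The other miR-36 rows among the 8 were scarcer and were seen almost only in females. bma-miR-36a_1ss19GA, shorter by 1 base, had 334 reads in females (0.0888%), 1 in males and 0 in the other 3 libraries. In females 57.0 reads of the longer form were counted per read of the shorter one, and in males 183 against 1. bma-miR-36b_R-4_1ss9GT had 10 reads in females (0.00266%) and 0 elsewhere. The candidate that starts with its whole sequence, PC-3p-3551_334, had 502 female reads. Whether that candidate is miR-36b was not tested.

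Of the 5 candidates, 3 had between 491 and 654 reads in females. PC-3p-4128_281 had 654 reads in females (0.174%), 2 in males and 0 in the others. PC-3p-3551_334 had 502 in females (0.133%), 2 in males and 0 in the others. PC-3p-3757_313, whose seed is shared with no other member, had 491 in females (0.131%) and 0 in each of the other 4 libraries. In females these 3 lay above the shorter miR-36a form. PC-3p-11865_72, the C21T form of miR-36a, had 24 reads in females and 0 elsewhere.

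PC-3p-6380_163 was the only one of the 8 with more than 1 read in microfilariae. It had 75 reads in females, 29 in microfilariae, 2 in males, 1 in fourth-stage and 0 in third-stage larvae, where the deposited value was 0.25. Its female share, 0.0199% (0.0157 to 0.0250), was 5.00-fold (3.22 to 7.96) its microfilarial share, 0.00399% (0.00267 to 0.00573). Of the 30 microfilarial reads of the 8 rows, 29 were of this row and 1 of bma-miR-36a_R+1_1ss19GA. Its microfilarial share was 13.0-fold (2.16 to 531) that of fourth-stage larvae, but the interval included 1 with TMM (trimmed mean of M-values) scaling, at 4.06-fold (0.673 to 166), and with DESeq2 size factors, at 1.47-fold (0.244 to 60.2).

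Summed by seed, CACCGGG rows made up 19392 female reads (5.16%), CACCGGA rows 1166 (0.310%), PC-3p-3757_313 alone 491 and PC-3p-6380_163 alone 75. In microfilariae the CACCGGG rows had 1 read, the CACCGGA rows 0 and PC-3p-3757_313 0. Against microfilariae the CACCGGA rows, at 1166 female reads and 0 microfilarial reads, were higher by at least 751-fold, and the CACCGGG rows 37489-fold (6728 to 1480796) higher. The 5.00-fold difference of PC-3p-6380_163 lay outside both. The 5 candidates held 1746 of the 55012 female reads of all 1055 candidates, or 3.17%, and PC-3p-4128_281 was the 13th most abundant candidate there.

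Adult females and males were compared first, since the study asked about differences between the sexes. The sum of the 8 rows was 9.75-fold (8.45 to 11.3) higher in females than in males. bma-miR-36a_R+1_1ss19GA was 9.12-fold (7.89 to 10.6) higher, with 5.06% against 0.555%. Of the 7 minor rows, which had 0 to 2 male reads and therefore wide intervals, 4 had a ratio or bound above this value. The female share was 29.3 times (5.22 to 1160) the male share for bma-miR-36a_1ss19GA. It was 22.0 times (6.06 to 182) for PC-3p-3551_334 and 28.7 times (7.91 to 237) for PC-3p-4128_281. For PC-3p-3757_313, with 491 female reads and 0 male reads, it was at least 14.4 times as high. PC-3p-6380_163 was at 3.29-fold (0.879 to 27.7), an interval that includes equal shares. bma-miR-36b_R-4_1ss9GT and PC-3p-11865_72, at 10 and 24 reads against 0, were too scarce to decide at this depth.

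By point ratio or bound, 6 of the 8 rows were at least 2-fold higher in females than in males. Of all 140 rows with 10 or more reads in either sex, 33.6% were. The median log2 ratio was 3.52 for the 8 rows and -0.12 for all 140, with rows at 0 reads entered at their bound. Of the 8 rows, 7 reached 10 reads in females alone, so their direction was in part fixed by that minimum. The same held for all 8 against each larval library. Against microfilariae 7 rows reached it in females alone, and by share of the table such a row is always called 2-fold higher. The scale of these folds depends on the scaling of the libraries: per mappable read the sum was 118-fold higher in females, and without the most abundant row of either library in the totals 6.23-fold. Of the 75 rows that were 2-fold apart in either direction, 62.7% were higher in females. That share was 94.1% per mappable read, 77.1% with TMM scaling and 44.6% without the most abundant rows. Under each of the 7 other scalings 6 to 8 of the 8 rows were 2-fold higher in females, and 0 lower. All 8 were higher only per mappable read, where 90.7% of all 140 rows were, so that count is close to the background. Under the rest 6 of the 8 were, beside 23.6% (without the most abundant rows) to 45.7% (TMM) of all rows.

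**Figure D2:**
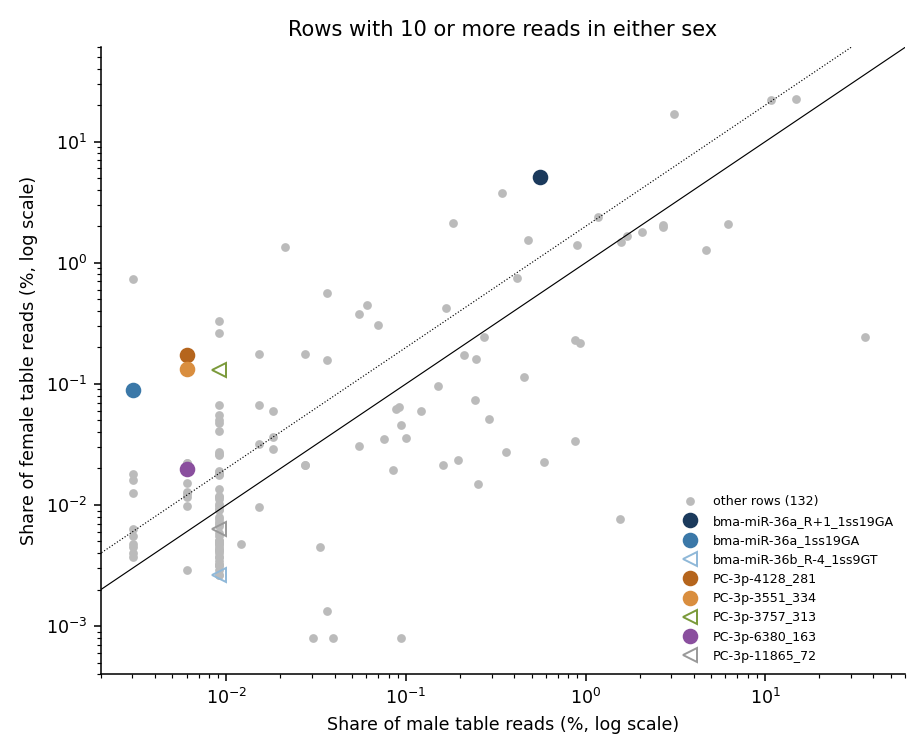
Share of table reads in females against males (both log scales) for rows with 10 or more reads in either sex. Rows with 0 reads are drawn at the limit of 3 reads, as open triangles for the 8 rows and grey points for the 132 others. The solid line marks equal shares and the dotted line 2-fold higher in females; 6 of the 8 rows lie above the dotted line.

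The make-up of the 8 rows, which no scaling of the libraries changes, differed as a whole between the female and the male library beyond counting error. bma-miR-36a_R+1_1ss19GA took 90.1% (89.7 to 90.5) of their reads in females and 96.3% (92.6 to 98.5) in males. The 7 other rows took 9.89% (9.49 to 10.3) of the female reads, 2090 in number, and 3.68% (1.49 to 7.44) of the male reads, 7 in number. This share was 2.69-fold (1.30 to 6.69) higher in females. The 5 candidates alone took 8.27% and 3.16%, a ratio of 2.62 (1.20 to 7.14). For single minor rows the counts in males decided little: among the 7 minor rows the interval of the ratio included 1 for each with a male read. PC-3p-3757_313 was the exception among rows with 0 male reads, at 2.32% (2.13 to 2.54) in females against a limit of 1.58% in males.

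**Figure D3:**
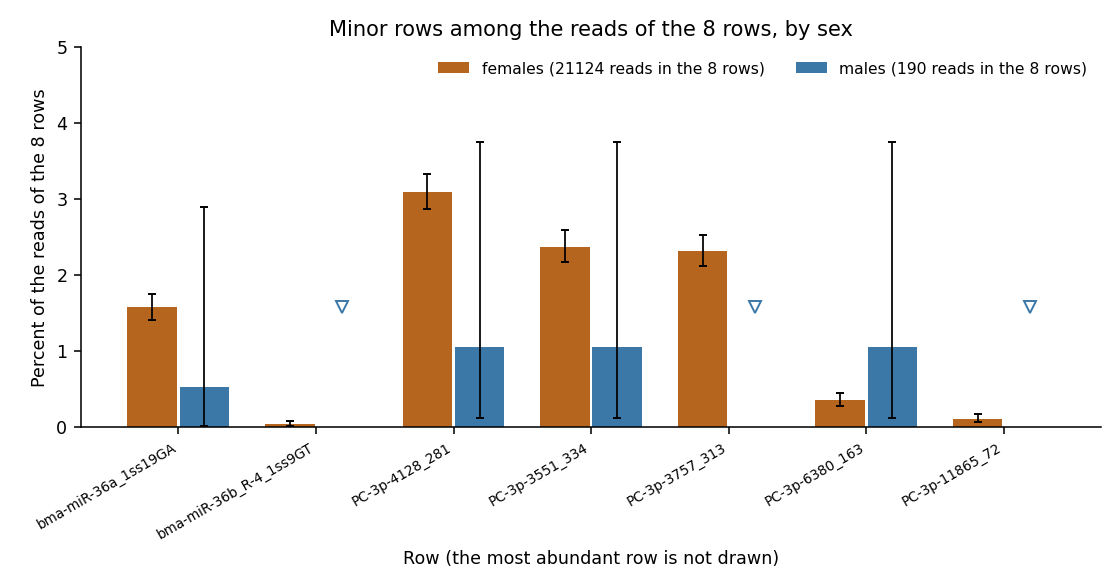
Percent of the reads of the 8 rows taken by each of the 7 minor rows, in females (21124 reads) and males (190 reads), with exact 95% binomial intervals. Open triangles mark rows with 0 male reads, at the limit of 3 reads. The male intervals are wide and, except beside PC-3p-3757_313, reach the female bar or its interval.

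Females and microfilariae, the stage that females give birth to, were next compared. The sum of the 8 rows was 1361-fold (953 to 2018) higher in females, and bma-miR-36a_R+1_1ss19GA 36797-fold (6603 to 1453460) higher. bma-miR-36a_1ss19GA was at least 215-fold, PC-3p-4128_281 at least 421-fold, PC-3p-3551_334 at least 323-fold and PC-3p-3757_313 at least 316-fold higher. For the scarce rows PC-3p-11865_72 and bma-miR-36b_R-4_1ss9GT the bounds were 15.5-fold and 6.44-fold. All 8 rows were at least 2-fold higher in females, against 42.5% of all 174 rows tested, and the median log2 ratio was 8.03 for the 8 rows and 0.10 for all rows. Of the 8, 7 reached 10 reads in females alone, and by share of the table such a row is always called. Their calls by share were thus fixed by the 10-read minimum, and the median of the 8 rows in part. All 8 were called under each of the 7 other scalings as well, beside 32.2% (per mappable read) to 44.8% (the authors' parameter) of all rows. Of all calls, 60.2% were higher in females by share of the table, 42.7% per mappable read and 44.4% with TMM scaling. The miR-100/miR-51 family, whose nematode branch is also needed in C. elegans embryos, summed over 16 rows by name to 63.2% of the female and 70.9% of the microfilarial table, a ratio of 0.891 (0.887 to 0.895) that turned to 1.05 with the authors' own library size parameter. Other families were higher in females, as the 8 rows were. lin-4 and let-7, which time larval development in C. elegans, were by name 52.9-fold (37.6 to 76.8) and 2.88-fold (2.40 to 3.48) higher, and both stayed above 1 under each of the 7 other scalings. The intervals of all 3 families lay below that of the 8 rows. Dog genome matches are listed for 3 of the 5 let-7 rows, 2 of the 16 miR-100/miR-51 rows and 0 of the lin-4 rows.

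Females also exceeded both larval libraries. The sum was 967-fold (268 to 7989) higher than in third-stage and 3664-fold (1570 to 11287) higher than in fourth-stage larvae. bma-miR-36a_R+1_1ss19GA was 872-fold (241 to 7199) and 4127-fold (1612 to 15150) higher. bma-miR-36a_1ss19GA was at least 10.2-fold higher than in third-stage and at least 96.6-fold higher than in fourth-stage larvae, and the lower first bound follows from the smaller third-stage table. PC-3p-6380_163 was 65.1-fold (11.3 to 2603) higher than in fourth-stage larvae. Against third-stage larvae its bound was 2.29-fold by share, but below 1, and so undecided, with TMM (0.599), DESeq2 size factors (0.549), the authors' parameter (0.442) and without the most abundant rows (0.822).

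Against third-stage larvae 6 of the 8 rows were at least 2-fold higher in females, where 50% of all rows tested were. Against fourth-stage larvae all 8 were, where 85.1% of all 148 rows were, so the count there is close to the background. The median log2 ratio was 3.63 for the 8 rows and 0.96 for all rows against third-stage larvae, and 6.87 and 3.07 against fourth-stage larvae. In both comparisons all 8 rows reached 10 reads in females alone, so their counts and medians were in part fixed by that minimum. Both backgrounds turned on scaling. Of the calls against third-stage larvae, 83.5% were higher in females by share, 94.2% per mappable read, 62.9% without the most abundant rows, 52.5% with TMM, 50% with DESeq2 size factors and 40.7% with the authors' parameter. Against fourth-stage larvae the figures were 88.1% by share, 73.1% with TMM, 59.3% without the most abundant rows and 55.3% with either DESeq2 size factors or the authors' parameter. With the authors' parameter 4 of the 8 rows were still 2-fold higher than in third-stage larvae, beside 16.9% of all rows tested. Against fourth-stage larvae 6 of the 8 were, beside 28.4% of all rows tested.

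**Figure D4:**
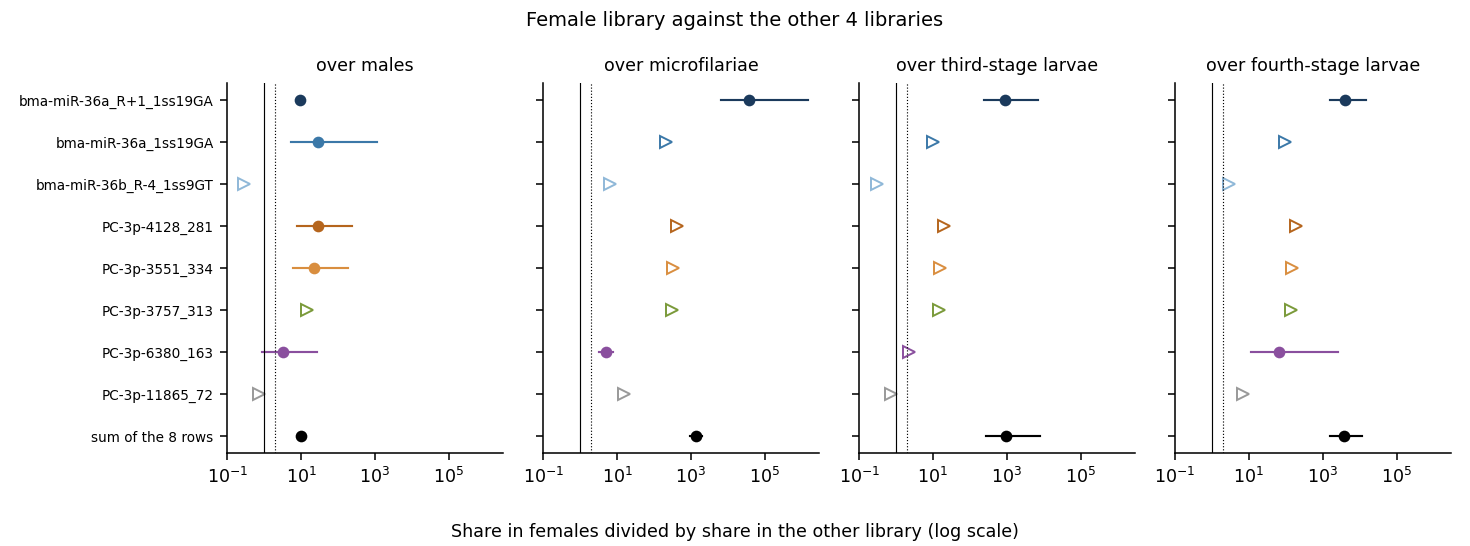
Share in females divided by the share in each other library (log scale) for the 8 rows and their sum. Points have exact 95% intervals, open triangles are lower bounds against 0 reads, and lines mark equal shares (solid) and 2-fold (dotted). Every point lies right of equal shares; the triangles left of the solid line belong to the scarce rows bma-miR-36b_R-4_1ss9GT and PC-3p-11865_72.

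Between the young stages the order of the rows was not settled, since the counts were small and the scaling turned the direction. The sum in microfilariae was 0.711-fold (0.180 to 6.14) that of third-stage larvae, and the sum in third-stage larvae was 3.79-fold (0.361 to 23.1) that of fourth-stage larvae. Both intervals include equal shares. The sum in microfilariae was 2.69-fold (1.03 to 8.89) that of fourth-stage larvae by share of the table, an interval just above equal shares, but 0.840-fold (0.323 to 2.77) with TMM and 0.238-fold (0.0916 to 0.787) with the authors' parameter. The microfilarial and third-stage sums were of different rows: the 2 third-stage reads were of bma-miR-36a_R+1_1ss19GA, while 29 of the 30 microfilarial reads were of PC-3p-6380_163. For bma-miR-36a_R+1_1ss19GA alone, microfilariae were at 0.0237-fold (0.000402 to 0.455) the third-stage share, on 1 and 2 reads. Per mappable read it was 0.551-fold (0.00934 to 10.6), an interval that includes equal shares.

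The rows whose profile over the 5 libraries lay nearest to that of bma-miR-36a_R+1_1ss19GA were sought among the 114 rows with 50 or more reads in total. A profile was a row's 5 shares divided by their sum, and nearness was the Euclidean distance between profiles. Outside the 8 rows the nearest was the candidate PC-3p-903_1424, at a distance of 0.0614, with 7995 reads in females, 858 in microfilariae and 60 in males. It is listed with dog genome matches. bma-miR-72_R-2, also listed with such matches, followed at 0.120, then PC-3p-16645_46 at 0.122, PC-3p-25340_26 at 0.126 and bma-miR-45_R-1 at 0.131. The last of these had 2763 reads in females and 1 in males. Among the 8 rows, PC-3p-3551_334 lay at 0.0790, PC-3p-4128_281 at 0.0928, bma-miR-36a_1ss19GA at 0.0938, PC-3p-3757_313 at 0.140 and PC-3p-6380_163 farthest at 0.294. The 5 points of a profile share 1 library each and differ in depth, so the distances are a description only, and just 2 of these 5 outside rows, bma-miR-72_R-2 and bma-miR-45_R-1, stayed among the nearest 5 when profiles were built per mappable read.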

How the data were processed

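Small RNA from worm culture medium was measured in 5 libraries, grouped by sample title, with 1 library per group. Per the labels' protocols, RNA was extracted from the concentrated medium of cultured whole worms with a Norgen Biotek kit, before TruSeq small RNA library preparation. The tools listed in the submitters' processing notes are Bowtie, with no version, and bcl2fastq 1.8.4. Per the file headers, reads under 18 nt or over 25 nt after adapter removal were set aside. The genome build, the miRNA database and the settings of the aligner are not given in the sources. A single line of the table is not analysed here.

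The deposited raw columns hold estimated counts per distinct sequence, not normalized by the authors; 11 of the 40 values of the 8 rows were fractional, and values were rounded to whole numbers. The authors also deposited a normalized signal, the raw count divided by a library size parameter, with 0 written as 0.001; this was checked for all 1228 rows and used only as an alternative scaling.

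Shares of table totals (32983 to 727018 reads) were given exact Clopper-Pearson intervals, and ratios exact conditional binomial intervals (SciPy 1.17.1). The ratio intervals were run on simulated independent counts. That run checks the computation only, since it held no PCR copies and no spread between replicates. Reads amplified by PCR and not marked by molecular identifiers are no independent molecules, so intervals and limits reflect counting error alone. A row was found at 10 or more reads, and called at 2-fold by point ratio or bound. No host blood or tissue miRNA of the list looked for by name (such as miR-451, miR-223 and miR-122) was present, which the table's nematode naming fixes. Alternatives were reads per mappable read, edgeR 4.0.16 TMM sizes, DESeq2 1.42.0 size factors, the authors' parameter, other totals, other members and unrounded values. The named rows are the 8 members, family rows by name, and the 5 nearest profiles. Members and lists were chosen with earlier results of these data known.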

Additional observations from a re-analysis of the deposited data

Results flagged for a closer look

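Outside the 8 rows, 3 further rows of the table begin with the same 6 bases, and 2 of them stood above the limit of 3 reads in a library. cel-miR-39-3p, named after a C. elegans member of the family, had 7 reads in third-stage larvae (0.0203%, 0.00817 to 0.0419) and 0 in the other 4 libraries. It matched bma-miR-36a_R+1_1ss19GA at its first 10 bases and at 15 of 21 positions. In third-stage larvae it had more reads than all of the 8 rows together, which had 2. Synthetic cel-miR-39 is a common spike-in for extraction from fluids; whether one was added here is not given in the sources used here, and its part in the result was not tested. bma-miR-36a_R-2, an 18 nt form equal to the start of the miR-36a rows, had 5 reads in females and 0 elsewhere. The third, the ppc-mir-8232 row, had 1 read, in females. A row named after miR-36c but with another start, asu-mir-36c-p3_1ss13CT, had 1 read in males and 0 in females.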

How the results depend on the processing

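Every fold of the summed 8 rows in females over another library stayed above 1 under all 12 alternatives, but its size moved. For females over males it was 118 per mappable read, 17.3 with TMM, 6.23 without the most abundant row of either library, 25.5 for the 5 candidates alone and 26.2 without bma-miR-36a_R+1_1ss19GA. Over microfilariae it was 819 per mappable read, 867 with TMM, 37462 for the 3 miR-36 rows, 116 for the candidates, 37500 for all rows with the miR-36a seed and 139 without bma-miR-36a_R+1_1ss19GA. Over third-stage larvae it was 13535 per mappable read, 253 with TMM, 232 with DESeq2 size factors, 187 with the authors' parameter, at least 53.3 for the candidates, 197 for the seed rows, which add cel-miR-39-3p, and at least 63.8 without bma-miR-36a_R+1_1ss19GA. Over fourth-stage larvae it was 728 with TMM, 380 with DESeq2 size factors, 383 with the authors' parameter, 458 without the most abundant row and 1514 for the candidates. Against share of the table, the log2 ratios of all rows shifted by -0.65 to 3.60 for females over males, by -0.73 to 0.24 over microfilariae, by -2.37 to 3.81 over third-stage and by -3.27 to 1.26 over fourth-stage larvae. Microfilariae over third-stage larvae, undecided by share, was 16.5 per mappable read, 0.116 with the authors' parameter, 0.0237 for the miR-36 rows and 0.00526 for the seed rows. For single rows in females over another library, 162 of 192 alternative values lay above 1, and the other 30 were lower bounds below 1, which decide nothing. At 50 or more reads 0 of the 8 rows were found in microfilariae, and at 3 or more reads 1 of the 8 in fourth-stage larvae. Thinned to 32983 reads, 5.12 of the 8 rows would be expected at 10 reads in females and 3.33e-07 in microfilariae. Microfilariae over fourth-stage larvae, a ratio rescaled after seeing the data, turned from 2.69 by share to 0.840 with TMM, 0.305 with DESeq2 size factors, 0.238 with the authors' parameter and 0.382 without the most abundant row, and was 10.7 per mappable read. The miR-100/miR-51 family, also rescaled after seeing the data, turned to 1.05 with the authors' parameter. The share of all rows 2-fold higher in females depends on the minimum: with at least 1 read and with 50 or more it was 5.04% and 51.2% against males, 18% and 46.3% against microfilariae, 7.65% and 77.0% against third-stage larvae, and 15.9% and 84.3% against fourth-stage larvae. In number, these were 204 and 44 rows against microfilariae, beside 74 at 10 or more, and 75 rows at 50 or more against fourth-stage larvae. Third-stage over fourth-stage larvae for the candidates, or without bma-miR-36a_R+1_1ss19GA, gave no value, at 0 and 1 reads. No paired analysis was possible because each group had 1 library. At 0 reads in males or third-stage larvae a row up to 0.00910% or 0.00871% could be missed, which limits every comparison of the scarce rows.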
